A study of Mus musculus with 8 samples.

Results

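A group of 9 genes that cells switch on in response to interferon (Irf7, Irf9, Isg15, Ifit1, Ifit2, Ifit3, Oasl2, Rsad2 and Bst2) was followed through RNA sequencing of the mouse soleus, a postural calf muscle rich in slow fibres. They were picked out of the count files by their gene symbols. All 9 were found among the 22880 gene identifiers counted, and all 9 passed the filter on low counts that left 14001 genes to be tested. The study asked how a point mutation of Dnm2, the gene of the membrane-cutting GTPase dynamin 2, alters the muscle transcriptome. Muscles came from 4 control mice (Dnm2 +/+) and 4 Dnm2 +/K562E mice, all males of C57BL/6 background at 2 months of age, each muscle from a separate animal. The mutation had been knocked in by homologous recombination at the mouse's own Dnm2 gene and was heterozygous in all cells, and a LoxP site remained in the neighbouring intron of that allele. No transgene, Cre or treatment was part of the groups compared.

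Interferons are secreted proteins that warn cells of viral infection. A cell senses foreign or misplaced nucleic acid, makes type I interferon, and the receptor on the same or a neighbouring cell signals through the JAK kinases and the STAT proteins. STAT proteins and IRF9 then form a complex that binds interferon-stimulated response elements in the promoters of antiviral genes, and IRF7 strengthens the response by driving more interferon. In tissues without infection these genes are expressed at low levels, in resident immune cells as well as in other cells.

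The elements bound by these factors are shown first, because they are the sequence feature through which the pathway is known to act. Promoters, taken as 250 bases before to 50 bases after the start of transcription, came from RefSeq on GRCm38.p6, and all 9 members were matched. The core of the response element was searched for as GAAANNGAAA, which reads TTTCNNTTTC on the other strand, and the gamma-activated sequence as TTCNNNGAA, which reads the same on both strands. The core was found in 5 of the 9 members, against 3.99% of all 27025 genes with a promoter in the table. For these 5 the 160 bases before the start are given on the strand of the gene, with the bases of every match to the core in capitals.
Isg15 (chr4:156200819-156200978, minus strand): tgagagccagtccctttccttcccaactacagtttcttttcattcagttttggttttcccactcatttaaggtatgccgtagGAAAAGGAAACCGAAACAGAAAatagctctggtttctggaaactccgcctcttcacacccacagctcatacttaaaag
Ifit1 (chr19:34640729-34640888, plus strand): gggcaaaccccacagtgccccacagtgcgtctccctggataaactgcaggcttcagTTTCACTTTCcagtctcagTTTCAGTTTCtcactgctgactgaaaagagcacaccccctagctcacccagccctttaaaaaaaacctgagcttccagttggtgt
Ifit3 (chr19:34583369-34583528, plus strand): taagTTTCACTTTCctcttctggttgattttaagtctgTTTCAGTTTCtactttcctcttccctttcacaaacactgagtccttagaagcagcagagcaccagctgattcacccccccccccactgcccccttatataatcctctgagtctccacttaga
Rsad2 (chr12:26456453-26456612, minus strand): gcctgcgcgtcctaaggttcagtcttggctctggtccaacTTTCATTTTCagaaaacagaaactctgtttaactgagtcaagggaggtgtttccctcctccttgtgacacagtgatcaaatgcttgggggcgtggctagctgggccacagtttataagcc
Bst2 (chr8:71537473-71537632, minus strand): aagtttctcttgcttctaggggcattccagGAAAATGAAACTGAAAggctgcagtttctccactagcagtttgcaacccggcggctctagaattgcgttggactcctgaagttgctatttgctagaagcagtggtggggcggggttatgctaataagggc
The Isg15 promoter held 3 overlapping matches, with first bases at -78, -72 and -66 from the start. Bst2 held a pair that overlapped in the same way, at -130 and -124. Ifit1 (-104 and -85) and Ifit3 (-156 and -122) each held separate matches read on the other strand, with the same letters in both genes. Rsad2 held 1 match, at -120. Ifit2, Irf7, Irf9 and Oasl2 had no match to these letters in this window. The gamma-activated sequence, found in 9.55% of all genes, was present in Ifit2 at -241 and in Bst2 at -136, where it overlapped the first core match. These matches describe letters in the reference and are not evidence of binding.

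Dnm2, the mutated gene, was read before the members. Its level in normalised CPM (read counts scaled to a common library size with TMM factors) was 68.8, 68.5, 59.2 and 68.7 in controls 1 to 4 and 74.2, 76.1, 73.2 and 70.3 in Dnm2 +/K562E mice 1 to 4. The mutants lay above all controls, as in 20.6% of all tested genes. The difference did not pass the test (log2 fold change 0.15, SE 0.07, adjusted p = 0.0909, quasi-likelihood test of edgeR, adjusted by Benjamini-Hochberg over all tested genes). A point mutation need not alter the count of its gene, so this value does not check the labels. The paper reports that reads with the mutation were absent from controls and about as abundant as wild-type reads in mutants. The genes listed as slow and oxidative muscle markers were abundant in all 8 libraries, although not all are specific to slow fibres. Myh7, the slow myosin heavy chain, was at 3694 to 6384 normalised CPM, which fits the tissue label. Library totals ran from 33407430 to 48832814 counts. TMM factors were 0.91 to 0.96 in controls and 1.04 to 1.10 in mutants, so the scaling moved the genotypes relative to each other: the median log2 fold change of all tested genes was 0.01 with TMM and 0.22 with library size alone. With TMM, 1806 genes were higher and 1099 lower past both thresholds (adjusted p under 0.05, fold change of 0.58 or more on the log2 scale), and with library size alone 2865 were higher and 564 lower.

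At both thresholds none of the 9 interferon-stimulated genes was higher in Dnm2 +/K562E soleus and 1, Isg15, was lower. Over all tested genes 12.9% were higher and 7.85% lower by this rule. At an adjusted p under 0.05 alone, Isg15, Bst2 and Rsad2 were lower and none was higher, against 21.7% lower and 22.2% higher of all genes. At an unadjusted p under 0.05, 5 of the 9 were lower and again none was higher, against 25.5% lower and 26.3% higher of all genes. The exact test of edgeR and DESeq2 also called none higher and only Isg15 lower at both thresholds. In 4 members (Isg15, Ifit1, Rsad2 and Bst2) every mutant lay below every control, an arrangement seen in 20.5% of all genes. In none was every mutant above every control, as was the case in 20.6% of all genes. The 6 members other than Isg15, Bst2 and Rsad2 had an adjusted p of 0.05 or more, like 56.2% of all genes. The log2 fold changes of the members had a median of -0.24 and ran from -0.68 to 0.29. With library size alone the median of the members was -0.03, no member was lower at both thresholds, and none of the lower calls at an adjusted p under 0.05 remained. Relative to the median of all genes, the members' median lay at -0.25 by either scaling, and 7 of the 9 lay below it. A change of scaling moves all genes by nearly the same amount. Subtracting the median removes it, so the agreement of both scalings tests nothing. Each p-value sets the difference of the 2 groups against the spread between mice, which is estimated with information from all genes. In whole muscle, fewer cells of a type and less RNA per cell cannot be told apart.

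**Figure D1:**
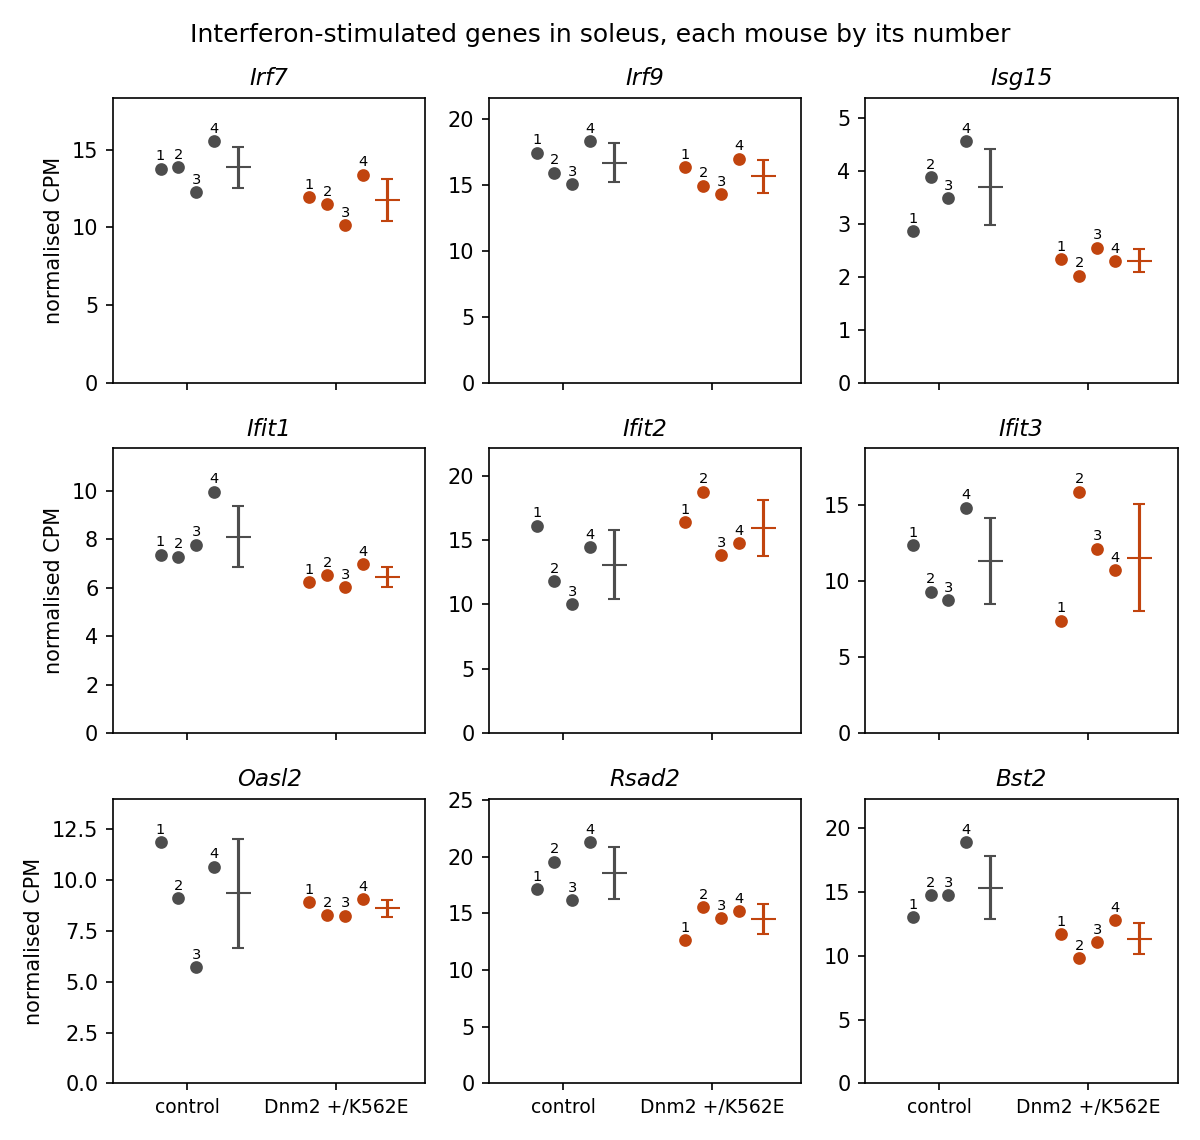
Level of each interferon-stimulated gene in normalised CPM (vertical axes, from 0) in the 4 control and the 4 Dnm2 +/K562E mice, numbered as in the text, with horizontal lines for the mean and bars for the SD. In Isg15, Ifit1, Rsad2 and Bst2 all mutant points lie below all control points, and control 4 is the highest control in 7 of the 9 panels.

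The transcription factors of the group come first. Irf7 (ENSMUSG00000025498, chromosome 7, 141262706 to 141266481, minus strand), which amplifies the interferon response, stood at 13.8, 13.9, 12.3 and 15.5 normalised CPM in controls 1 to 4 and at 11.9, 11.5, 10.2 and 13.4 in mutants 1 to 4. Mutants 1 to 3 were below every control, while mutant 4 fell inside the range of the controls. The Irf7 means were 13.9 ± 1.33 and 11.8 ± 1.34 (SD, n = 4 each). The log2 fold change was -0.24 (SE 0.11, 95% interval -0.47 to -0.01) and did not pass the test (adjusted p = 0.0898, edgeR quasi-likelihood test). Irf7 overlaps Phrf1 on the opposite strand by 45 exonic bases, and strand use in the counting is not given in the sources used here.

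Irf9 (ENSMUSG00000002325, chromosome 14, 55603571 to 55610030, plus strand), the DNA-binding part of that complex, had the smallest SE of the members. Its levels were 17.5, 15.9, 15.1 and 18.3 normalised CPM in the controls and 16.3, 14.9, 14.3 and 17.0 in the mutants. The groups overlapped over most of their range. Irf9 averaged 16.7 ± 1.46 in controls and 15.7 ± 1.24 in mutants (SD, n = 4 each), a log2 fold change of -0.09 (SE 0.09, 95% interval -0.29 to 0.11), which became 0.12 with library size alone. Its adjusted p was 0.430 (edgeR quasi-likelihood test). Of its exonic bases, 123 are shared with Rnf31 on the same strand, and reads there were counted for both genes.

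Isg15 (ENSMUSG00000035692, chromosome 4, 156199424 to 156200818, minus strand) encodes a ubiquitin-like protein that is secreted or attached to other proteins. Controls 1 to 4 gave 2.86, 3.89, 3.49 and 4.56 normalised CPM, and mutants 1 to 4 gave 2.34, 2.02, 2.55 and 2.30. The groups did not overlap, although the lowest control, control 1, was close to the highest mutant, mutant 3. Isg15 fell from 3.70 ± 0.714 to 2.30 ± 0.218 (SD, n = 4 each), the largest change among the 9 members. The log2 fold change was -0.68 (SE 0.18, 95% interval -1.08 to -0.29, adjusted p = 0.00986, edgeR quasi-likelihood test). Without control 4 it was -0.578 and so just missed the fold threshold, with an adjusted p of 0.0280 by the same edgeR test, and with library size alone it was -0.48 (adjusted p = 0.0514). Isg15 had the lowest normalised CPM of the members, with 903 counts over the 8 mice. It shares 13.1% of the 31-base stretches of its transcripts with other gene models, so part of its reads could be lost in mapping.

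Next come the IFIT genes, which lie side by side on chromosome 19 and encode proteins that bind viral RNA and hold back its translation. Ifit1 (ENSMUSG00000034459, chromosome 19, 34640871 to 34650009, plus strand) measured 7.36, 7.28, 7.77 and 9.95 normalised CPM in the controls against 6.22, 6.51, 6.01 and 6.97 in the mutants. All mutants were below all controls, and control 4 was set apart at the top. The Ifit1 means were 8.09 ± 1.26 and 6.43 ± 0.417 (SD, n = 4 each), with a log2 fold change of -0.33 (SE 0.12, 95% interval -0.61 to -0.06). The adjusted p was 0.0513 by the edgeR quasi-likelihood test and 0.0452 by the exact test of edgeR, so this gene sat on the threshold. Ifit1 shares 10.8% of its 31-base stretches, mainly with Ifit1bl2 and Ifit1bl1.

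Ifit2 (ENSMUSG00000045932, chromosome 19, 34550694 to 34576419, plus strand) showed the opposite sign. It had 16.1, 11.8, 10.01 and 14.5 normalised CPM in controls 1 to 4 and 16.4, 18.8, 13.8 and 14.8 in mutants 1 to 4. Mutants 1 and 2 exceeded every control, whereas mutants 3 and 4 were below control 1. The Ifit2 averages of 13.1 ± 2.72 and 15.9 ± 2.16 (SD, n = 4 each) gave a log2 fold change of 0.29 (SE 0.15, 95% interval -0.04 to 0.62). With TMM the difference did not pass the test (adjusted p = 0.145, edgeR quasi-likelihood test), while with library size alone it was 0.50 (adjusted p = 0.0256, same edgeR test).

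Ifit3 (ENSMUSG00000074896, chromosome 19, 34583531 to 34588731, plus strand) varied most within the mutants. The controls gave 12.4, 9.30, 8.73 and 14.8 normalised CPM and the mutants 7.39, 15.9, 12.1 and 10.7, so that the lowest and the highest of the 8 values were both mutants. Its means of 11.3 ± 2.84 and 11.5 ± 3.51 (SD, n = 4 each) were close, with a log2 fold change of 0.03 (SE 0.23, 95% interval -0.47 to 0.53, adjusted p = 0.917, edgeR quasi-likelihood test). The interval is wide enough to hold changes in either direction. Ifit3 shares 61.8% of its 31-base stretches with its near copy Ifit3b, and reads that match both equally well could be lost from both. For Ifit3b itself the log2 fold change was 0.08 (adjusted p = 0.832, edgeR quasi-likelihood test).

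Oasl2 (ENSMUSG00000029561, chromosome 5, 114896936 to 114912234, plus strand) belongs to the oligoadenylate synthetase-like proteins of antiviral defence. Its controls ranged widely, at 11.9, 9.12, 5.71 and 10.7 normalised CPM, and its mutants were close together at 8.91, 8.27, 8.25 and 9.05. All mutants lay inside the range of the controls. Oasl2 averaged 9.34 ± 2.66 and 8.62 ± 0.418 (SD, n = 4 each), a log2 fold change of -0.11 (SE 0.19, 95% interval -0.52 to 0.30), which became 0.10 with library size alone and 0.02 without control 1. Its adjusted p was 0.661 (edgeR quasi-likelihood test).

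Rsad2 (ENSMUSG00000020641, chromosome 12, 26442746 to 26456452, minus strand) encodes viperin, a radical SAM enzyme that produces a chain-terminating nucleotide. Its levels of 17.2, 19.6, 16.2 and 21.3 normalised CPM in the controls were all above the 12.6, 15.6, 14.6 and 15.2 of the mutants. Mutant 2, at the top of its group, came within a small margin of control 3, the lowest control. Rsad2 fell from 18.6 ± 2.31 to 14.5 ± 1.31 (SD, n = 4 each), with a log2 fold change of -0.35 (SE 0.10, 95% interval -0.59 to -0.12, adjusted p = 0.0181, edgeR quasi-likelihood test). Without mutant 1 the change was -0.30 and no longer passed (adjusted p = 0.0529, same edgeR test), and with library size alone it was -0.15 (adjusted p = 0.295).

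Bst2 (ENSMUSG00000046718, chromosome 8, 71534255 to 71537456, minus strand) encodes tetherin, a membrane protein that holds budding viruses at the cell surface. Controls 1 to 4 had 13.0, 14.7, 14.7 and 18.9 normalised CPM and mutants 1 to 4 had 11.7, 9.81, 11.04 and 12.8. The groups did not overlap, but mutant 4 was almost level with control 1. Bst2 fell from 15.3 ± 2.501 to 11.3 ± 1.24 (SD, n = 4 each). The log2 fold change was -0.44 (SE 0.12, 95% interval -0.71 to -0.16, adjusted p = 0.0153, edgeR quasi-likelihood test) and passed the test whichever mouse was left out, with a largest adjusted p of 0.0451. With library size alone it was -0.23 (adjusted p = 0.161). No 31-base stretch of Bst2 or Ifit2 was shared with another gene.

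**Figure D2:**
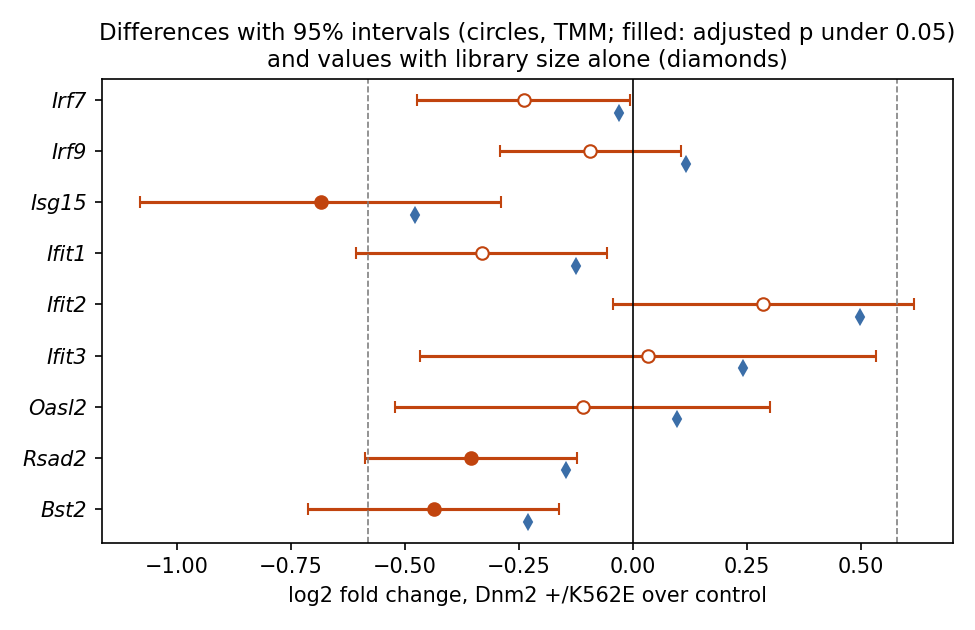
Log2 fold change of each interferon-stimulated gene, Dnm2 +/K562E over control, with its 95% interval (circles and bars, TMM scaling, filled where the adjusted p was under 0.05) and its value with library size alone (diamonds), with dashed lines at the fold threshold of 0.58 in either direction. Isg15, Rsad2 and Bst2 are filled, only Isg15 lies past the threshold, and all diamonds lie to the right of their circles, with Irf9 and Oasl2 crossing 0.

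Between mice of the same genotype most pairs of members, but not all, deviated in the same direction. Summed over the members, the level was 112, 106, 94.0 and 128 normalised CPM in controls 1 to 4 and 93.9, 103, 92.9 and 102 in mutants 1 to 4. Control 4 was the highest and control 3 the lowest control, and control 3 sat at the level of the mutants. Control 4 was the highest control for 7 of the 9 members and the highest of all 8 mice for 6, and control 3 was the lowest control for 6. Among the mutants, mutant 4 was highest for 5 members and mutant 3 lowest for 5. After the genotype means were subtracted, the 36 pairs of members had a median Pearson r of 0.45 over the 8 mice, and 31 of them were above zero. The highest was Irf7 with Irf9 (0.91) and the lowest Isg15 with Ifit2 (-0.36), and the 5 pairs below zero joined Isg15 or Bst2 to Ifit2, Ifit3 or Oasl2. All points of a correlation share the depth and scaling of the same 8 libraries, so these values are a description.

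Compared per kilobase of exon, the levels of the members ran from those of Bst2 to those of Oasl2. The length used covers the exons of all annotated transcripts of a gene: 6374 bases for Oasl2, 5386 for Irf9 and 3776 for Irf7. Where the main transcript is shorter than this length, the gene is placed too low in the order. Ifit3 shares 61.8% of its 31-base stretches with Ifit3b, so lost reads could make its value too low. In controls Bst2 was the highest at 17.0 ± 2.77 normalised CPM per kilobase, above every control value of the next gene. Ifit3 followed at 6.48 ± 1.63, Isg15 at 4.90 ± 0.945 and Rsad2 at 4.28 ± 0.533. Irf7 stood at 3.67 ± 0.352, Ifit2 at 3.34 ± 0.691, Irf9 at 3.10 ± 0.271 and Ifit1 at 3.05 ± 0.474 (all SD, n = 4). From Ifit3 to Ifit1 each gene overlapped the next in this order, and Oasl2 was the lowest at 1.46 ± 0.418, below every control value of Ifit1. The 5 tested genes whose deviations between mice were most like the mean of the members were Wrb (r = 0.967), Katnal2 (0.963), Negr1 (0.954), Mpzl3 (0.953) and Fam171b (0.952), each over 8 mice. They were picked for the highest r among all tested genes outside the members, so high values follow from the choice. Mpzl3 (log2 fold change 2.46), Fam171b (2.27) and Negr1 (0.90) were higher in mutants at both thresholds, whereas no member was. Wrb (0.14) and Katnal2 (1.36) did not pass the test, and Katnal2 had a mean of only 0.362 normalised CPM.

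The rest of the pathway was read from lists of known interferon genes. Leaving out the members, these lists held 133 genes, of which 110 were tested. At both thresholds 12 were higher and 6 lower, against 12.9% and 7.85% of all genes. At an adjusted p under 0.05 alone 19 were higher and 18 lower, against 22.2% and 21.7% of all genes. The same shares of all genes apply to the counts of each list below. The median log2 fold change of the 110 was 0.03, against 0.01 for all genes. With library size alone 18 of them were higher and 3 lower at both thresholds, against 2865 and 564 of all 14001 tested genes. The core of the response element was present in 45 of the 104 listed genes with a promoter in the table (43.3%), against 3.99% of all genes.

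The ligands were at or below the limit of counting. Of 20 listed interferon genes (14 of the Ifna family, Ifnb1, Ifne, Ifnk, Ifng, Ifnl2 and Ifnl3), 19 had no count in any mouse, and Ifng had 1 count in control 4 and 1 in mutant 3. A count of 0 allows up to 3 counts in a library, or 0.0614 to 0.0898 CPM at these depths, an interval that covers counting error only. The Ifna genes share 14.5% to 88.3% of their 31-base stretches with other genes, so their reads could be lost in mapping, whereas Ifnb1 shares none.

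Of 11 tested receptor and signalling genes, 5 were higher at an adjusted p under 0.05, against 22.2% of all genes. Ifnar1 (log2 fold change 0.37, adjusted p = 0.0116) and Ifnar2 (0.46, 0.00265), which form the type I receptor, Ifngr1 of the interferon-gamma receptor (0.44, 0.00439) and Il10rb of the type III receptor (0.35, 0.00258) passed the edgeR quasi-likelihood test without reaching the fold threshold. With library size alone Ifnar2 (0.67) and Ifngr1 (0.65) passed both thresholds. Ifnar2 and Il10rb share exonic bases with the gene model Gm21970 on the same strand. Tyk2, the kinase bound to Ifnar1, rose from 15.7 ± 1.09 to 24.1 ± 0.614 normalised CPM (SD, n = 4 each). With TMM it was the 1 gene past both thresholds (0.62, adjusted p = 6.29e-05, edgeR quasi-likelihood test). The log2 fold change of Jak2, a kinase of the interferon-gamma receptor, was -0.35 (adjusted p = 0.0315, edgeR quasi-likelihood test), and it did not pass with library size alone (adjusted p = 0.329). Stat2, a partner of IRF9 in the complex, had 14.6 ± 2.56 and 14.5 ± 0.946 normalised CPM (SD, n = 4 each) and a log2 fold change of -0.00.

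Among 15 sensors and adaptors, 4 were higher and 1 lower at both thresholds, against 12.9% and 7.85% of all genes. The largest fall was that of Mavs, the mitochondrial adaptor of the cytosolic RNA sensors. Its controls lay between 163 and 202 normalised CPM and its mutants between 79.6 and 89.9, a log2 fold change of -1.13 (SE 0.08, adjusted p = 1.82e-06, edgeR quasi-likelihood test) that kept both thresholds with library size alone (-0.91). The endosomal receptors Tlr9 (1.23) and Tlr7 (0.98), the DNA-sensing adaptor Tmem173 (0.75) and the kinase Ikbke (0.69) were higher, although Ikbke held both thresholds in only 2 of 8 fits that left out a mouse. The RNA sensors Ddx58 (-0.05) and Ifih1 (0.18) and the DNA sensor Cgas (-0.32) did not pass the test.

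Of 7 further interferon regulatory factors, Irf5 (0.93), Irf8 (0.80) and Irf4 (0.79), which are known from myeloid and lymphoid cells, were higher at both thresholds, and Irf4 lost its call without control 3 or without mutant 2. Irf5 shares exonic bases with Tnpo3 on the opposite strand. Irf3, the factor that starts the response, was at 21.6 ± 1.94 and 20.7 ± 1.36 normalised CPM (SD, n = 4 each), a log2 fold change of -0.07 (adjusted p = 0.546, edgeR quasi-likelihood test). Irf1, at -0.28, did not pass either (adjusted p = 0.0665, edgeR quasi-likelihood test). The machinery that attaches and removes ISG15 was listed with 5 genes, none past both thresholds. Trim25, an ISG15 ligase, fell by 0.29 on the log2 scale (adjusted p = 0.0177, edgeR quasi-likelihood test), a change that was -0.08 with library size alone, and Uba7 (-0.27), Usp18 (-0.27), Herc6 (-0.19) and Ube2l6 (0.01) did not pass.

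The relatives of the members were read beside the shares of all genes at both thresholds, which were 12.9% higher and 7.85% lower. Of 7 tested genes of the oligoadenylate synthetase and RNase L group, Oas2 was lower (7.38 ± 2.07 to 4.63 ± 0.874 normalised CPM, SD, n = 4 each), and its log2 fold change was -0.67 (adjusted p = 0.0234, edgeR quasi-likelihood test). It lost the call with library size alone (adjusted p = 0.0903) and in 4 of 8 fits that left out a mouse (control 2, control 4, mutant 1 or mutant 2). The other 6 had log2 fold changes above 0 and none passed. None of Ifit3b, Ifit1bl1 and Ifit1bl2 passed the test either.

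Among 36 tested other genes known to respond to type I interferon, 1 was higher and 2 lower at both thresholds. The shares of all genes were 12.9% and 7.85%. The median log2 fold change of the 36 was -0.07. Cmpk2, a mitochondrial nucleotide kinase whose gene neighbours Rsad2, fell from 11.5 ± 2.72 to 5.88 ± 0.855 normalised CPM (SD, n = 4 each), with a log2 fold change of -0.96 (SE 0.18, adjusted p = 0.00126, edgeR quasi-likelihood test). Ifi44 fell by 0.73 on the log2 scale (adjusted p = 0.00597) and lost its call with library size alone, where the change was -0.53. Ifi204, a myeloid DNA-binding protein that has 34.6% of its 31-base stretches in common with relatives of its family, was higher (0.94, adjusted p = 0.00805, edgeR quasi-likelihood test). At an adjusted p under 0.05 alone 3 were higher and 9 lower, against 22.2% and 21.7% of all genes. Those lower included Helz2 (-0.53), Pnpt1 (-0.49), Ifi35 (-0.48), Slfn5 (-0.43) and Rtp4 (-0.42). With library size alone 9 were higher and 4 lower by this rule.

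Genes known to be induced by interferon-gamma showed the widest spread. Of 19 tested, 2 were higher and 2 lower at both thresholds, against 12.9% and 7.85% of all genes. The median was -0.28, and 16 lay below 0 (with library size alone the median was -0.08). Gbp6, a guanylate-binding protein, fell from 60.5 ± 7.39 to 15.9 ± 2.69 normalised CPM (SD, n = 4 each), with a log2 fold change of -1.93 (SE 0.13, adjusted p = 1.72e-06, edgeR quasi-likelihood test). It shares 74.3% of its 31-base stretches, mainly with Gm43302 and Gbp10, so part of its reads could be lost in mapping. Reads on exons that overlap Gm43302 could be counted for both. Gbp4 (-0.59, adjusted p = 0.0266) was called in only 2 of 8 fits that left out a mouse and not with library size alone. Cxcl10, a chemokine for T cells, was counted 1, 3, 1 and 18 times in the controls and 25, 53, 80 and 25 times in the mutants (log2 fold change 2.78, SE 0.74, adjusted p = 0.0104, edgeR quasi-likelihood test). Its exons overlap those of Art3 on the opposite strand by 133 bases. Ciita, the regulator of MHC class II genes, was also higher (1.30, adjusted p = 0.0121), while Cxcl9 was not called (0.18, adjusted p = 0.561, edgeR quasi-likelihood test). Of 7 negative regulators, the phosphatase Ptpn6 was higher at both thresholds (1.28, adjusted p = 0.00152), and Ptpn2 passed the test below the fold threshold (0.34, adjusted p = 0.0137, edgeR quasi-likelihood test).

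**Figure D3:**
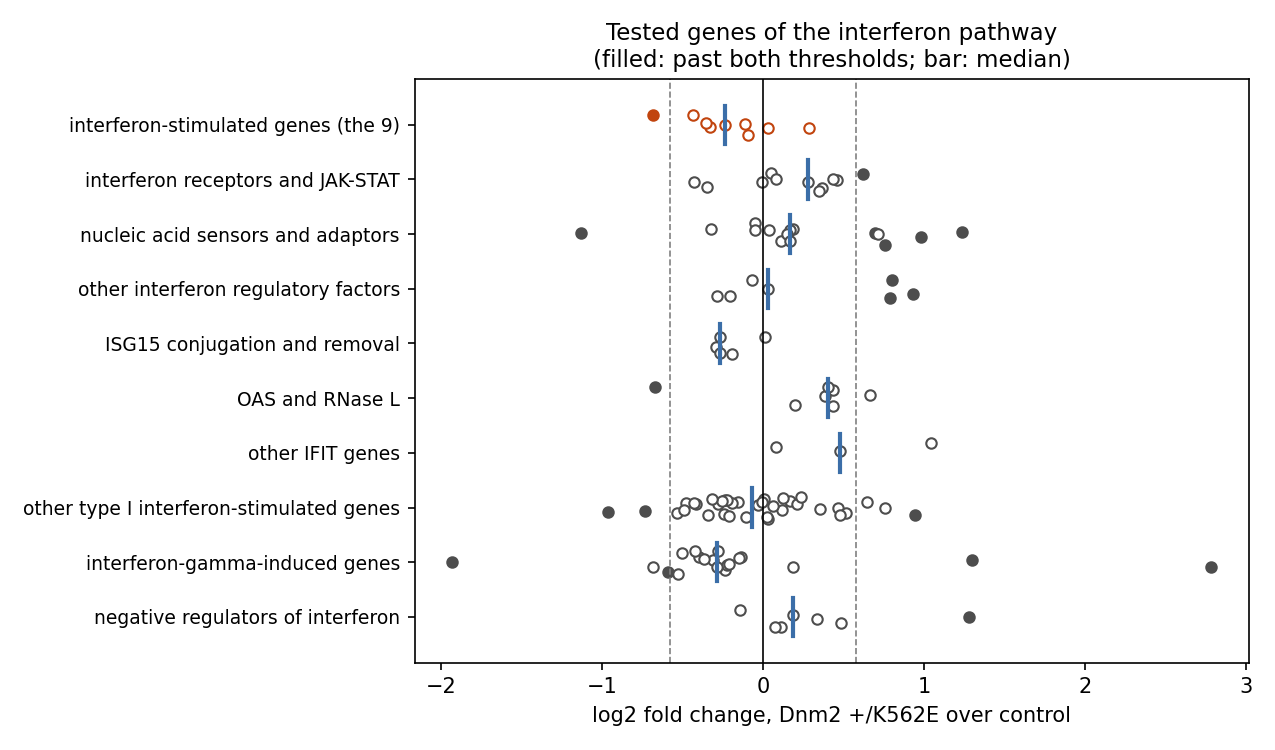
Log2 fold change, Dnm2 +/K562E over control with TMM scaling, of every tested gene of the interferon lists (points, filled where past both thresholds), with a bar at the median of each list and dashed lines at the fold threshold of 0.58. The 9 members span -0.68 to 0.29, and the widest points are Gbp6 at -1.93 and Cxcl10 at 2.78.

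Markers of the cell types that could carry these genes moved in different directions. All 7 macrophage markers (Adgre1, Csf1r, Cd68, Itgam, Ptprc, Mrc1 and Lgals3, of which Ptprc marks all leukocytes) were higher at both thresholds, the median log2 fold change was 1.20, and there was no overlap of the groups in any of them. Their summed level was 72.8 to 135 normalised CPM in controls, highest in control 4, and 179 to 296 in mutants. Conventional dendritic cell markers summed to 12.8 to 19.4 and 15.9 to 21.9 normalised CPM, with Itgax (2.71) and Flt3 (1.45) higher at both thresholds of 5 tested, although Flt3 held them in only 1 of 8 fits that left out a mouse. Zbtb46 of the same list went the other way (-0.51, adjusted p = 0.0314, edgeR quasi-likelihood test) and did not pass with library size alone. Plasmacytoid dendritic cell markers, the cells known for making type I interferon, summed to 1.34 to 3.27 and 2.86 to 3.39, with 2 of 4 tested and none called. T and NK cell markers (1 of 6 tested), B and plasma cell markers (1 of 5) and neutrophil markers (2 of 5) had no call, and Ly6g was at 0 in all mice. With library size alone Pacsin1 of the plasmacytoid list (0.82), Cd4 (1.54) and 1 neutrophil marker were higher at both thresholds.

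The endothelial markers all fell at an adjusted p under 0.05, from 862 to 900 down to 616 to 705 summed normalised CPM, with Kdr (-0.64) past both thresholds. With library size alone 2 of the 5 passed the test and none, Kdr (-0.43) included, passed both thresholds. Of 5 fibroblast markers, Pdgfra (1.11), Col1a1 (1.00), Dcn (0.99) and Pi16 (0.87) were higher at both thresholds, and Ly6a was lower by the test alone (-0.19, adjusted p = 0.0332, edgeR quasi-likelihood test), a value of 0.02 with library size alone. Of 6 genes listed as slow and oxidative muscle markers, Ckm (-1.02) and Myh2 (-0.62) were lower at both thresholds. With library size alone Myh2 (-0.41) was not. At an adjusted p under 0.05 alone 5 of the 6 were lower, against 21.7% of all genes, and 5 were also lower with library size alone. The list is not specific to slow fibres: Ckm and Acta1 are genes of skeletal muscle in general, and Myh2 is the myosin of fast type IIA fibres. The part of these cell types in the levels of Isg15, Rsad2, Bst2 and the other members was not tested.

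**Figure D4:**
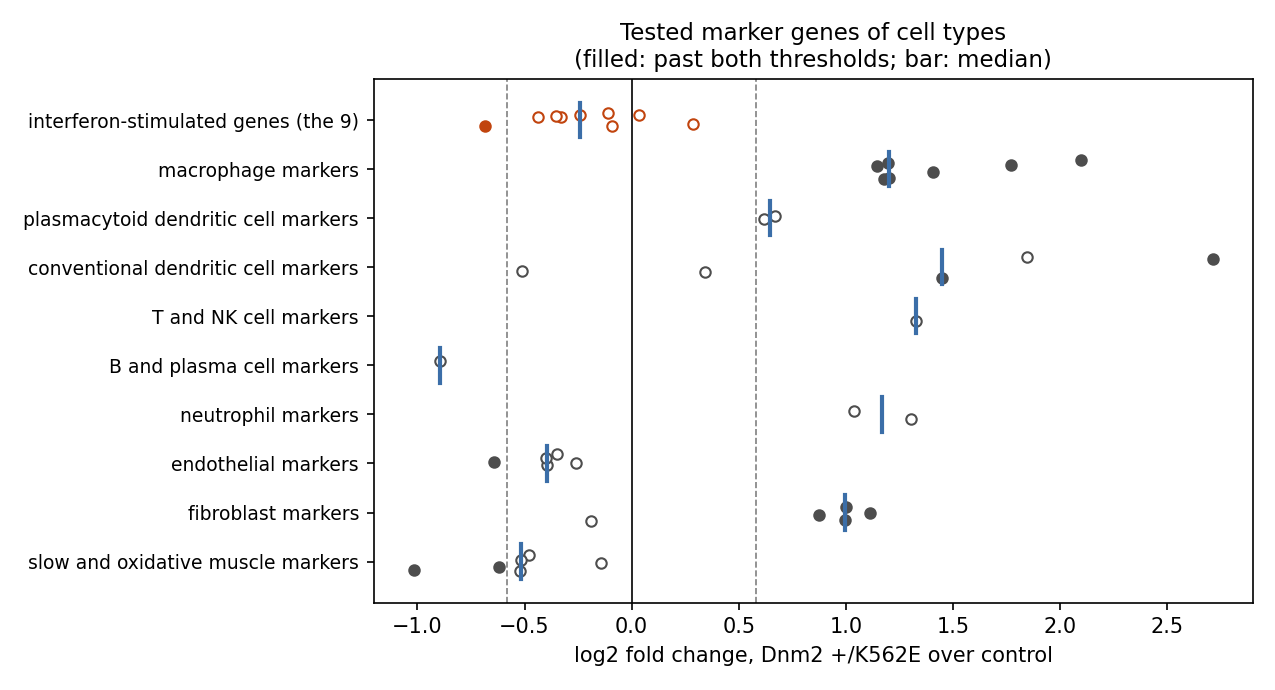
Log2 fold change, Dnm2 +/K562E over control with TMM scaling, of every tested marker gene of 9 cell types and of the 9 members (points, filled where past both thresholds), with a bar at the median of each list and dashed lines at the fold threshold of 0.58. All 7 macrophage markers are filled on the right, with a median of 1.20, while the members have a median of -0.24.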

How the data were processed

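RNA from soleus muscles of 4 control and 4 Dnm2 +/K562E mice was sequenced. The authors trimmed the reads (Trimmomatic 0.33), aligned them to GRCm38.p5 (STAR 2.5.1b, per the submitters' processing notes) and deposited raw counts per gene and mouse from featureCounts. Reads below a mapping quality of 10 were left out, which with STAR removes reads that match several places equally well. The further setting, to count multi-mapping reads at the primary alignment, then has little to act on. Reads on several genes were counted for each of them. Near copies therefore lose reads and overlapping genes share them. The labels name a stranded total RNA kit and the paper's methods poly A-enriched libraries, and strand use in counting is not given in the sources used here.

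Of 22880 gene IDs, 22647 were matched to GENCODE M21 of the same build. Genes were kept by filterByExpr (minimum count 10, minimum total 15). TMM factors and the quasi-likelihood test were computed with edgeR 4.0.16 in R 4.3.3, with Benjamini-Hochberg adjustment over 14001 genes. Depth was 33407430 to 48832814 counts per mouse, and chi-square per degree of freedom between mice of a genotype was 12.6 or more, so no library was counted as a duplicate. Log2 CPM used a prior count of 2. Floors are 3 counts and cover counting error only. The fitting was tested on simulated data.

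The text names all members, Dnm2, genes of the pathway and marker lists (calls and largest changes first) and the 5 genes most correlated with the members. Members and lists were chosen with earlier results of these data known. Oas1b and Mx2 were not matched by symbol, and Ifi44l did not pass the filter. A result for 1 listed gene is not reported here. Alternatives were the exact test of edgeR (the test of the paper's methods), library size alone, DESeq2 1.42.0, its median-ratio factors in edgeR, no filter, at least 10 counts in every mouse, the mouse number as a replicate block, no fold threshold, and leaving out each mouse.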

Additional observations from a re-analysis of the deposited data

Results flagged for a closer look

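In 9 cases a value lay far from the other 3 mice of their genotype by Dixon's ratio, among 88 groups of 4 tested, where chance gives about 1 in 20, and none of these is a member. Dnm2 was low in control 3, at 59.2 normalised CPM. Control 4 was high for Tlr9 (1.12 normalised CPM), Ifi204 (14.1), Cxcl10 (0.530), Ciita (2.56) and the macrophage markers Csf1r (49.6) and Mrc1 (36.1). Gbp6 was low in control 1, at 49.5 normalised CPM. Ptpn6 was low in Dnm2 +/K562E mouse 4, at 4.43 normalised CPM against 6.87 to 7.21 in the other mutants.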

How the results depend on the processing

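The counts below are for both thresholds unless stated. No member was higher under any alternative run. The lower members (1, Isg15) became 0 with library size alone and 0 without control 4, and 3 with no fold change threshold; leaving out 1 mouse gave 0 to 1. For the listed pathway genes (12 higher, 6 lower), library size alone gave 3 lower, no fold change threshold gave 19 higher and 18 lower, and leaving out 1 mouse gave 10 to 15 higher and 4 to 9 lower. For all genes (1806 higher, 1099 lower), the same settings gave 2865 and 564, 3103 and 3036, and 1588 to 1970 higher and 1026 to 1208 lower. Signs reversed with library size alone for Irf9 (0.12) and Oasl2 (0.10), and when single mice were left out for Oasl2 (-0.29 to 0.0206, above 0 without control 1) and Ifit3 (-0.16 to 0.20, below 0 without control 2, control 3 or mutant 2), none of which passed the test. Ifit1, at an adjusted p of 0.0513, passed with DESeq2 (0.0351), median-ratio factors (0.0467), the exact test of edgeR (0.0452), without control 1 (0.0348) and without control 2 (0.0461). Ifit2 passed without control 1 (0.0379) and Irf7 without mutant 4 (0.0442), both by the edgeR quasi-likelihood test. The cause of these shifts was not tested, apart from the scaling itself, which moved the median of all genes from 0.01 to 0.22. The members' median relative to all genes stayed between -0.31 and -0.18 over 16 alternatives. Subtracting the median of all genes removes a change of scaling, so settings that differ only in scaling could hardly move this value.

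The mouse numbers of the labels were not used to pair the animals. The deviations of same-numbered mice correlated at -0.21, -0.09, 0.01 and -0.17 by title, and at 0.18, -0.10, -0.03 and -0.17 by description. These values show no pairing but cannot exclude it, since paired animals need not deviate alike over all genes. With the replicate block by title number, 1 member was lower, 10 pathway genes were higher and 5 lower, and 1637 of all genes were higher and 1036 lower. With the description number these were 1, 12 and 6, and 1739 and 1083. Neither block changed the call of a member. Depth limits Isg15 most, with 903 counts in all, and leaves the interferon ligands below counting.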
